A study of Mus musculus with 2 samples.

Results

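The SoxB genes encode a group of closely related transcription factors with an HMG box, the DNA-binding domain of the Sox family. The group has 5 members in the mouse: Sox1, Sox2 and Sox3, which form the SoxB1 subgroup, and Sox14 and Sox21, which form SoxB2. Ring1B occupancy at their promoters was measured by ChIP-chip in mouse embryonic stem (ES) cells. This assay recovers the DNA bound by a protein with an antibody and compares it with total chromatin DNA, the input, on an array of promoter probes. Members were found by name: a probe was taken where the array gave the gene's symbol alone or as one side of a divergent gene pair. Probes were found for 4 of the 5 genes, among 16845 genes with at least 3 probes. Sox14 was not analysed here.

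DNA immunoprecipitated with a monoclonal Ring1B antibody carried Cy5 and input DNA, the whole-cell extract, carried Cy3, both after linker-mediated PCR. The labels give no strain, genotype, passage or treatment for the ES cells, and they list no cells without Ring1B, no mock immunoprecipitation and no dye swap. The source names of both samples begin with the word Muscle while the titles name ES cells, which is the name used here. Between them the 2 arrays had 0 probes in common, as slides of a set. Sox1 and Sox2 lay on array 1, and Sox3 and Sox21 on array 2. Each gene was therefore measured once, without replicates, and no test or p-value was possible. Every value is a log2 ratio of immunoprecipitated over input processed signal, centred on the median probe of its array. Genes are given by the mean over their probes, and the SD beside a mean is the spread among those probes along 1 promoter. That SD is not an error between samples, because neighbouring probes read the same DNA fragments on the same array.

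As background, the SoxB1 proteins are activators that keep neural progenitors undifferentiated, and Sox2 also acts with Oct4 in ES cells to maintain pluripotency. Sox21 and Sox14 are repressors that favour neuronal differentiation. Ring1B is the catalytic core of Polycomb repressive complex 1, which places ubiquitin on histone H2A and keeps developmental genes silent. Promoters bound by Polycomb complexes in ES cells are usually rich in CpG dinucleotides. The comparison asked how Sox2, which is active in ES cells, stood beside the other members of its group.

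Promoter sequences of Sox2 and Sox21 are shown because they represent the lowest and a high member of the group, to let their CpG content be compared. They are the 250 bases before the RefSeq transcription start (assembly GRCm38.p6), written on the strand of the gene, with CpG in capitals.
Sox2, chr3:34649745-34649994, plus strand: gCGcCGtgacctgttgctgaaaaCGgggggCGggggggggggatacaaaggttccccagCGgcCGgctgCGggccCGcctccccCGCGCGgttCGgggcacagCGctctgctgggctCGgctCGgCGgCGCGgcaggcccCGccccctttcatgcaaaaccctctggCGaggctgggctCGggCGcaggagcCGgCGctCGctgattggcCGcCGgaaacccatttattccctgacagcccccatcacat
Sox21, chr14:118237031-118237280, minus strand: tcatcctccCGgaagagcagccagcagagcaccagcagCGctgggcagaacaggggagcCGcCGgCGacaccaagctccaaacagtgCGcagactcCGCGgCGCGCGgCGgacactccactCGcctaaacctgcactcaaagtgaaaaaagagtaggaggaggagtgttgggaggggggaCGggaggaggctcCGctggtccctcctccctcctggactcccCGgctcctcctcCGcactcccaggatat
The Sox2 stretch held 27 CpG at a GC content of 72%, and the Sox21 stretch held 17 CpG at 65.2%. Among 32851 promoter stretches of this length in the RefSeq table, the median was 6 CpG and 52.4% GC, 8.56% held at least as many CpG as Sox2 and 23.5% at least as many as Sox21. The same stretch held 29 CpG at Sox1 and 23 at Sox14, for which no ratio is given here. One whole probe lay in the Sox21 stretch, centred at -115.5 bp from the RefSeq start, and had a log2 ratio of 2.91. At Sox2 no whole probe lay in the stretch. The nearest was centred 23 bp inside the RefSeq start, almost wholly beyond the bases shown, and had 1.5. Sox2 had the CpG-richer stretch of this pair.

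Of the 4 measured SoxB genes, 3 reached a mean log2 ratio of 1, which is 2-fold over the median probe, and Sox2 did not. Over all genes 336 (1.99%) reached that value, and 311 were at or below -1. This split moved with the processing, as 87.9% of the genes past 1 in size were above with normexp background correction, against 51.9% here and 23.7% without probes dim in input. The median of the 4 genes was 1.28, beside -0.10 over all genes. Sox3 was highest at 1.5 ± 0.99 (SD, 45 probes), followed by Sox21 at 1.41 ± 1.18 (SD, 46 probes) and Sox1 at 1.15 ± 0.66 (SD, 11 probes). The Sox1 probes all lay between -9841 and -8148 bp from its start, so the Sox1 mean does not describe its start site. Sox2 was lowest at 0.32 ± 1.25 (SD, 38 probes). As ratios these means were 2.83-fold, 2.66-fold, 2.22-fold and 1.25-fold over the median probe. Sox3 ranked 109th, Sox21 138th, Sox1 240th and Sox2 2407th among all genes, so that 0.647%, 0.819%, 1.42% and 14.3% of genes stood as high or higher.

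In a bulk sample such as this, fewer cells with Ring1B at a promoter and less Ring1B per cell cannot be told apart. The gap between Sox2 and the median of the other members was -1.09. It was of the size of the SD over the probes of a single gene, and the single-probe ranges of all 4 genes overlapped. Sox3 and Sox21 differed by less than the standard error over the probes of either, 0.15 and 0.17. That standard error treats neighbouring probes as independent, which they are not, and gives no error between samples. The Sox1 value was below both, and the difference from Sox21 was smaller than the SD over probes of either gene. With Sox1 left out, a choice made after its probe positions were seen, the gap was -1.14. At a threshold of 1.5 in place of 1, only Sox3 passed.

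**Figure D1:**
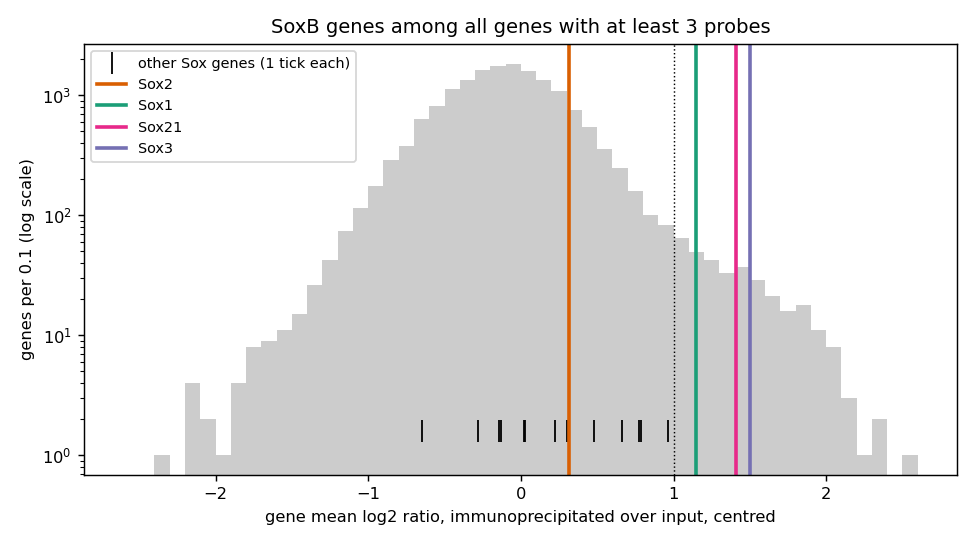
Histogram of the gene mean log2 ratio of immunoprecipitated over input DNA (x axis) for the 16845 genes with at least 3 probes, with the number of genes per step of 0.1 on a log axis (y axis). Coloured lines mark Sox2 at 0.32, Sox1 at 1.15, Sox21 at 1.41 and Sox3 at 1.5, black ticks mark the 13 other measured Sox genes, and the dotted line marks the threshold of 1, which Sox2 and the other Sox genes do not reach.

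At Sox2, the pluripotency factor, high probes were a smaller share than at the other members and lay mainly around and inside the gene. The tile covered 7835 bp of chromosome 3 (34452145 to 34459979, in the array's coordinates, of a build not named in the labels or headers). Its 38 probes ran from -2.74 to 3.84 with a median of 0.10. At or above 1 were 11 probes (28.9%), at or below -1 were 5, and 23 lay above 0. Over all probes of array 1, 17.7% reached 1 and 20.4% were at or below -1. The 26 probes that the array annotates as promoter had a mean of 0.11 ± 1.02 (SD), and 5 of them reached 1. The 11 probes annotated as inside the gene had a mean of 0.83 ± 1.66 (SD), and 6 of them reached 1. Sox2 has a single exon, so probes inside the gene are exonic.

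The high probes of Sox2 formed a patch over the start site and the first part of the transcribed region. The probe at -377 bp had 1.06, the one at -37 bp had 1.5 and the one at 107 bp had 2.00, but the next one at 384 bp had -0.01. Further in, probes at 732, 873 and 1006 bp had 1.19, 1.90 and 1.13. The highest probe of the gene followed at 1417 bp with 3.84. The lowest, with -2.74, lay close by at 2098 bp. In steps of 1000 bp, the mean was 1.27 over 4 probes from 0 to 1000 bp and 1.36 over 5 probes from 1000 to 2000 bp. It was -0.88 over the 3 probes beyond 2000 bp, 0.23 over the 4 probes of the last 1000 bp before the start, and -0.79 over 5 probes between -5000 and -4000 bp. The mean was 0.89 between -4000 and -3000 bp, where 2 of 5 probes reached 1 and 2 others were at floor values. Over the 1000 bp on either side of the start, the Sox2 value was 0.75, beside 1.59 for Sox3 and 2.03 for Sox21. The RefSeq start lies at -60 bp from the start used for Sox2, and at -1239 bp from that used for Sox21. These 2 windows therefore do not cover matched positions.

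Sox3, a SoxB1 gene of the X chromosome that acts in the hypothalamus and pituitary and in neural progenitors, was high across most of its tile. The tile covered 7882 bp (X chromosome, 56285338 to 56293219), and its 45 probes ran from -0.65 to 3.64 with a median of 1.44. At or above 1 were 33 probes (73.3%), beside 21.7% over all probes of array 2. At or below -1 were 0, and 42 lay above 0. The mean was 2.17 over the last 1000 bp before the start, where 7 of 7 probes reached 1, and 2.12 over the preceding 1000 bp, where 5 of 5 did. Further out it was 1.25 between -4000 and -3000 bp and 0.47 between -5000 and -4000 bp. From 0 to 1000 bp it was 0.25, over only 3 probes, which included the lowest probe of the gene at 942 bp. Beyond the probes annotated as inside the gene the ratio was high again. RefSeq gives Sox3 a length of 2065 bp in GRCm38, and its start was not placed on this scale. Some probes annotated as downstream may therefore lie within the transcript. The 9 probes annotated as downstream had a mean of 2.10 ± 1.19 (SD), 6 of them reached 1, and the highest probe of the gene lay among them at 1299 bp. The array gave no start for the genes of array 2, and distances there are from the boundary between promoter and inside probes.

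Sox21, a SoxB2 repressor that counteracts SoxB1 factors, was high from well upstream of the start to inside the gene. The tile covered 8204 bp (chromosome 14, 112636182 to 112644385), and its 46 probes ran from -1.12 to 3.39 with a median of 1.59. At or above 1 were 31 probes (67.4%), beside 21.7% over all probes of array 2. At or below -1 were 2, and 39 lay above 0. The mean went from -0.49 over the 3 outermost upstream probes to 2.23 in the last 1000 bp before the start, where 6 of 6 probes reached 1. Inside the gene it was 1.79 over the first 1000 bp and 2.37 over the next, where 6 of 6 probes again reached 1. The last probe, at 2222 bp, was the lowest of the gene. The RefSeq start used for the sequence above lies at -1239 bp on this scale, so the probe in that stretch was upstream of both starts. The last 1000 bp before the start on this scale thus lie inside the RefSeq transcript.

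**Figure D2:**
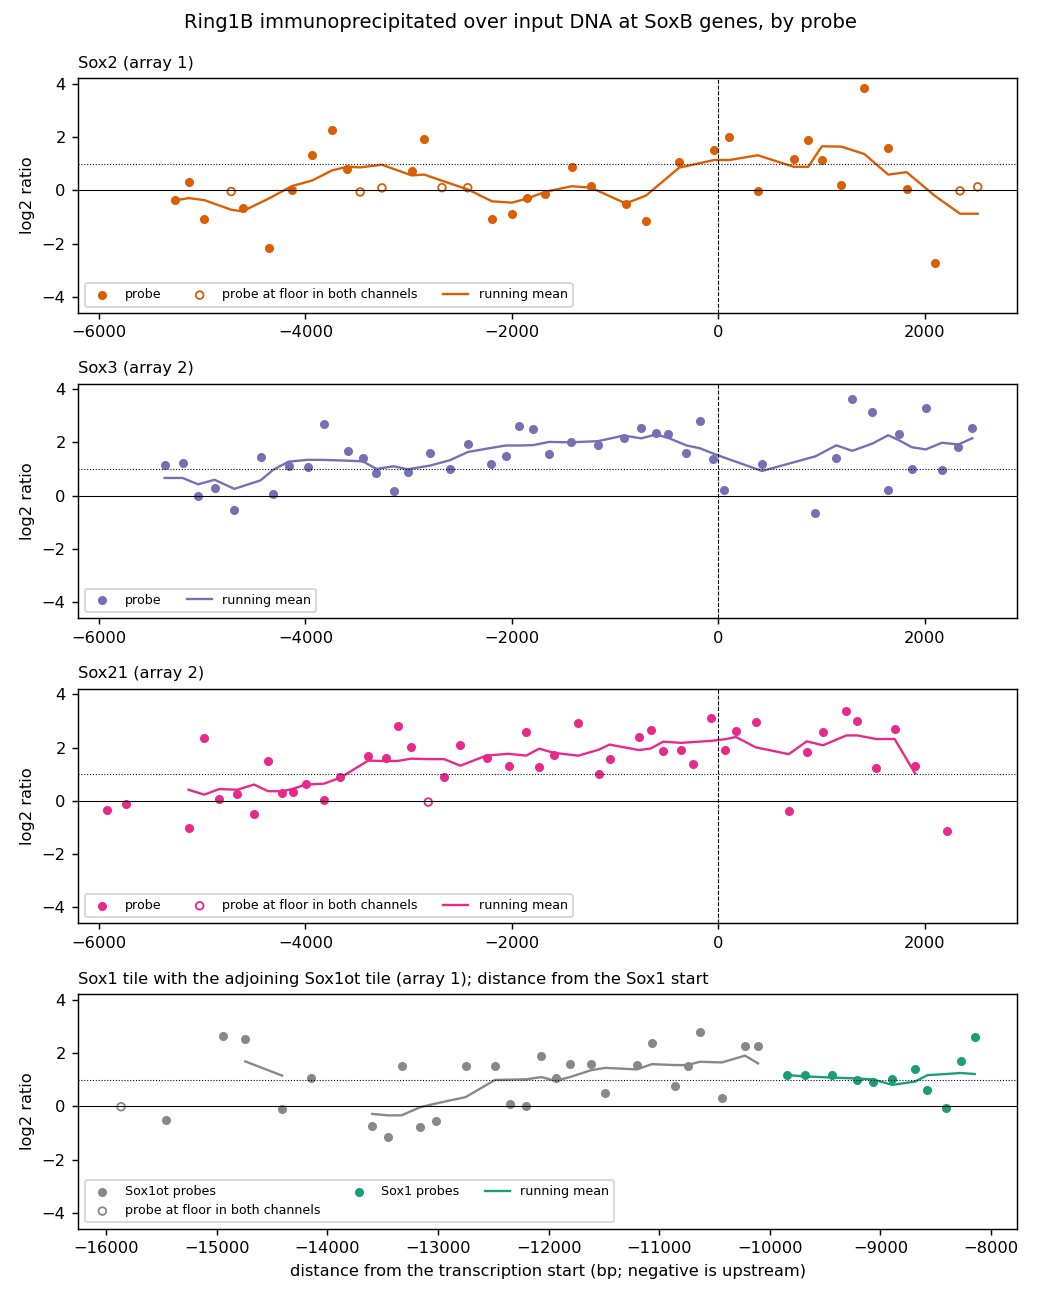
Log2 ratio of immunoprecipitated over input DNA (y axis) at each probe of Sox2, Sox3, Sox21 and Sox1 against its distance from the transcription start in bp (x axis, negative is upstream), 1 panel per gene. Filled points are single probes, open points are probes at floor values in both channels, lines are running means over probes within 500 bp, and the dotted line marks 1. The Sox3 and Sox21 lines stay above 1 over most of the tile, the Sox2 line exceeds 1 only near and inside the gene, and the Sox1 panel shows the Sox1ot probes in grey, placed by the array's own coordinates.

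The Sox1 tile did not cover the start of Sox1, a SoxB1 gene of early neural plate and lens. Its 11 probes covered 1751 bp (chromosome 8, 12360584 to 12362334) between -9841 and -8148 bp from the start that the array gives for the gene. All were annotated as promoter. They ran from -0.07 to 2.62 with a median of 1.16, and 10 lay above 0. Of them 7 (63.6%) reached 1, beside 17.7% over all probes of array 1. The 5 outermost probes were close together, from 0.90 to 1.19, and the nearer 6 were spread from -0.07 to 2.62. No Sox1 probe lay within 1000 bp of the start, so the Sox1 value and those of the other members describe different positions.

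The probes named for Sox1 adjoined those of Sox1ot, a long noncoding RNA transcribed through the Sox1 locus. The array names this transcript LOC434280, and it was matched by gene ID. Its start lies 10590 bp upstream of the Sox1 start that the array gives, and 9748 bp upstream of the RefSeq start of Sox1 in GRCm38. Its tile ended 213 bp before the Sox1 tile, which began 722 bp inside the transcript. The 28 Sox1ot probes (chromosome 8, 12354557 to 12360370) had a mean of 0.98 ± 1.16 (SD), and 16 (57.1%) reached 1. Their mean was 1.58 over 6 probes in the last 1000 bp before the Sox1ot start and 1.61 over 3 probes inside. Both tiles together, 39 probes over 7778 bp, had a mean of 1.03 ± 1.04 (SD). They held a run of 2781 bp with a mean of 1.43, which crossed from one tile into the other. The values given for Sox1 are thus those of DNA inside Sox1ot.

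Runs of high probes, with a running mean over probes within 500 bp of at least 1, differed in length between the members. Sox3 and Sox21, 2 of the 4 genes, had a run of 2000 bp or more, against 470 of 16810 genes (2.8%). The Sox1 tile, at 1751 bp, was too short to hold a run of that length. Joined with the adjoining Sox1ot tile, it held part of a run of 2781 bp. Sox21 had 1 run of 5360 bp (112636495 to 112641854, 32 probes, mean 1.93). Sox3 had 3 runs, of which the longest covered 2898 bp (56287756 to 56290653, 18 probes, mean 1.84), with 1573 bp at the downstream end of its tile and 1066 bp upstream. Sox1 had runs of 824 bp (mean 1.08) and 481 bp (mean 1.21). Sox2 had runs of 473 bp (34457368 to 34457840, mean 1.16) and 464 bp (34458418 to 34458881, mean 1.73), each of 3 probes. With the sign turned, no run was found at any of the 4 genes, although Sox2 and Sox21 had single probes below -1. The lengths depended on the window. With probes within 250 bp averaged, the longest runs were 1236 bp at Sox3, 985 bp at Sox21, 828 bp at Sox2 and 515 bp at Sox1. With 1000 bp, they were 6107 bp at Sox3, 5673 bp at Sox21, 1751 bp at Sox1, the whole of its tile, and 667 bp at Sox2. Sox21 thus had the longest run with 500 bp, and Sox3 with the other windows.

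The mean over all genes was slightly higher near the start, so the profiles were set beside that background. On array 1 the mean over all probes was -0.22 between -6000 and -5000 bp and 0.04 in the first 1000 bp inside, where 22.0% of probes reached 1. Sox2 had 3 of 4 probes at or above 1 in that bin. On array 2 the corresponding means were -0.16 and 0.10. In the last 1000 bp before the start 25.0% of all array 2 probes reached 1, beside 7 of 7 at Sox3 and 6 of 6 at Sox21. At Sox21 this stretch lies inside the RefSeq transcript, and the Sox3 start was not checked against RefSeq.

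Sox2 had the lowest input signal of the group, and the order of the other members by median input was the reverse of their order by mean ratio. The median input signal was 141 at Sox2, 544 at Sox3, 1013 at Sox21 and 2083 at Sox1, in intensity units, beside 291 over all probes of array 1 and 305 of array 2. At Sox2, 9 of 38 probes had input not well above background, and 7 were at floor values in both channels, which sets their ratio near 0. At Sox3 and Sox1 no probe was at the floor, and at Sox21 1 was in both channels. Without floor probes in both channels Sox2 had a mean of 0.38, and 35.5% of its remaining probes reached 1. Without probes dim in input its mean was 0.33, so the value stayed below those of the other members in both cases. Of the 11 high probes of Sox2, 1 was dim in input, and their median input was 102 against 205 for its other probes. The high probes also had the lower median input at Sox1 (1009 against 2085) and, by less, at Sox3 (544 against 603). At Sox21 the order was the opposite, 1109 for high probes and 640 for the others. Whether signal strength had a part in the order of the genes was not tested.

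**Figure D3:**
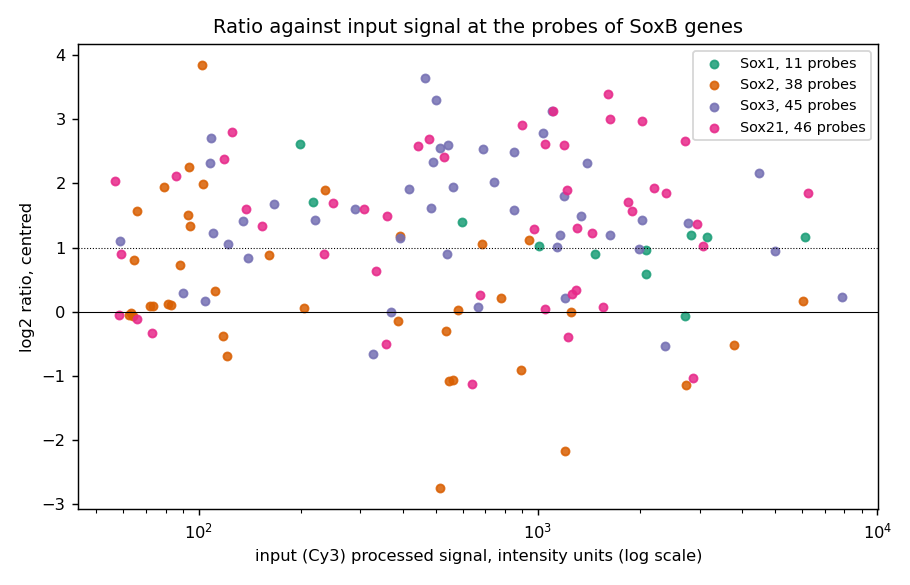
Log2 ratio of immunoprecipitated over input DNA (y axis) against the processed input signal in intensity units (x axis, log scale) for the probes of Sox1 (11), Sox2 (38), Sox3 (45) and Sox21 (46). Each point is a probe and the dotted line marks 1. The Sox2 probes include many of low input signal and the lowest ratios, -2.16 and -2.74, while Sox3 and Sox21 have probes above 1 at low and high input signal, though the brightest Sox3 probe, at 7872, had 0.22.

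The probes of Sox2 had the lowest GC content of the group. Mean probe GC was 41.2% at Sox2, 45.5% at Sox21, 46.9% at Sox1 and 47.0% at Sox3, beside a median of 40.4% over all probes. The mean number of CpG per probe was 1.73 at Sox3, 1.29 at Sox2, 1.15 at Sox21 and 0.91 at Sox1, beside 0.70 and 0.72 over all probes of arrays 1 and 2. Over the 46 probes of Sox21 the ratio correlated with the CpG count (Pearson 0.44), and the coefficient was 0.20 at Sox2, 0.18 at Sox1 and 0.07 at Sox3. These probes share an array and neighbouring fragments, and the coefficients are descriptions. Over all probes it was 0.10 on array 1 and 0.09 on array 2.

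Probe sequences from the upstream regions are shown for the highest and the lowest probe of each gene at least 1500 bp before the start, to let base content and ratio be compared. They are in the orientation of the array design, with CpG in capitals and positions in the array's coordinates.
Sox2 highest, chr3:34453662-34453718: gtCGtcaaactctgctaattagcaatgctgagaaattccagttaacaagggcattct
Sox2 lowest, chr3:34453054-34453110: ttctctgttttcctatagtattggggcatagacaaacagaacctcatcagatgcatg
Sox3 highest, chrX:56291619-56291678: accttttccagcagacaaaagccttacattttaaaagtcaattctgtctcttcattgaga
Sox3 lowest, chrX:56292495-56292542: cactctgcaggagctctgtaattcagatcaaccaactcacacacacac
Sox21 highest, chr14:112641511-112641570: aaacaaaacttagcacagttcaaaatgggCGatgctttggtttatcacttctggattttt
Sox21 lowest, chr14:112643543-112643587: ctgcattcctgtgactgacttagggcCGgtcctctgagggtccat
Sox1 highest, chr8:12362275-12362334: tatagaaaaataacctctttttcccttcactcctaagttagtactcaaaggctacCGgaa
Sox1 lowest, chr8:12362021-12362068: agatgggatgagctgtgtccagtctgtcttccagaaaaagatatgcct
The Sox2 pair had the same length and GC content, 57 bases and 40.4%, and yet ratios of 2.26 and -2.16. The highest had an input signal of 94.0 and an immunoprecipitated signal of 527, and the lowest had 1198 and 314. At Sox3 the ratios were 2.70 (GC 35.0%) and -0.53 (47.9%), at Sox21 2.80 (35.0%) and -1.03 (57.8%), and at Sox1 2.62 (36.7%) and -0.07 (45.8%). At these 3 genes the highest upstream probe was the more AT-rich of its pair. In all 4 pairs the probe with the higher ratio had the lower input signal, for example 126 against 2859 at Sox21. The pairs were chosen by the ratio, whose denominator is the input signal, so the choice itself favours this. The CpG counts were 0 or 1 per probe. They were higher in the highest probe at Sox1 and Sox2, and equal within the pair at Sox3 and Sox21.

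The genes named here that lie next to Sox2, Sox3 and Sox21 on the array were near the median probe, and those next to Sox1 were not. On either side of Sox2 lay Dnajc19 at 0.05 ± 1.23 (SD, 37 probes), 556589 bp away, and Atp11b at -0.19 ± 0.92 (34 probes). Next to Sox3 was Ldoc1 at -0.00 ± 0.85 (30 probes). Next to Sox21 were Gpr180 at -0.17 ± 1.58 (32 probes), 93764 bp away, and Abcc4 at -0.14 ± 1.44 (27 probes). Beyond Sox1 lay Spaca7 at -0.64 ± 1.66 (28 probes). None of these neighbours reached 1, and Sox1ot stood just under it.

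Other Sox genes served as the nearest comparison by family. Of 15 listed genes of the other Sox groups, 13 were measured and 0 reached 1 or fell to -1. Over all genes 1.99% reached 1 and 1.85% fell to -1, so counts of 0 in so short a list are near those shares. Their median was 0.22 and 9 lay above 0. The highest were Sox17, an endoderm regulator, at 0.97 ± 1.23 (SD, 36 probes), and Sox4, a SoxC factor of progenitors, at 0.79 ± 1.15 (48 probes). Sox9, a cartilage and gonad regulator, had 0.77 and Sox7 had 0.66. The lowest were Sox5 at -0.28 ± 1.20 (42 probes) and Sox15 at -0.65 ± 1.38 (15 probes). Sox2 lay within their range and the other SoxB genes above it. That separation did not hold for each setting. With only probes within 1000 bp of the start, Sox17 had 2.02, Sox9 1.68, Sox7 1.46, Sox18 1.46 and Sox4 1.37. With Sox8 at 0.92 and Sox30 at 0.77, 7 of the 13 were then above Sox2, and Sox17 and Sox9 were above the Sox3 value of 1.59. With probes named for the gene alone, Sox18 had 1.56 and was above all SoxB genes. Sox17 was above Sox1, at 1.15, without probes dim in input (1.28), without probes at the floor in both channels (1.23) and in either (1.4). With the median of probes Sox9 had 1.37 against 1.16 for Sox1.

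Genes that SOX2 partners with or acts on in ES cells were near the median probe, as Sox2 was in most of its upstream tile. All 15 listed genes were measured, 0 reached 1, and their median was 0.01. With 1.99% of all genes at or above 1, a count of 0 in so short a list is near that share. The highest were Tdgf1, a Nodal co-receptor, at 0.78, Zfp42, which encodes Rex1, at 0.50, and Sall4 at 0.37. The lowest were Fbxo15 at -0.55, the growth factor gene Fgf4 at -0.49 and Zscan10 at -0.29. Pou5f1, which encodes Oct4, had -0.21. Tdgf1, Zfp42 and Sall4 were the only ones of the list above the Sox2 value.

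Genes of neural progenitors that work with SoxB factors included many high promoters. Of 20 listed, 19 were measured, 19 lay above 0, and the median was 1.06. Of these genes 10 (52.6%) reached 1, beside 1.99% of all genes. The highest were Six3 at 2.39, Pou3f2, which encodes the SoxB1 partner Brn2, at 2.04, and Otx2 at 2.02. Among the lowest were Notch1 at 0.10 and Hesx1 at 0.24. Nes, a well-known SoxB1 target through its enhancer, had 0.31, close to Sox2. The list was chosen with earlier results of these data known, and its counts describe these arrays.

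Marker genes could not settle the cell type, since the assay reads bound DNA and not expression. None of the 6 ES cell markers (median -0.02) and none of the 7 muscle markers (median -0.10) reached 1, beside 1.99% of all genes. The 6 fibroblast markers, listed since feeder cells may be present in ES cultures, had a median of 0.22. Pdgfra at 1.66 and Twist1 at 1.01 reached 1, and the other 4 lay between -0.59 for S100a4 and 0.39 for Col1a2.

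Sox2 was the lowest measured member in all 12 ways of processing, and the other members stayed at or above 1 in each that gave them a value. Over these alternatives Sox2 lay between 0.10 and 0.75, Sox3 between 1.44 and 1.68, Sox21 between 1.41 and 2.03 and Sox1 between 1.15 and 1.53. The order of Sox3 and Sox21 changed with the setting. Sox21 was above Sox3 with the median of probes, within 1000 bp of the start, and without floor values in either channel, a choice added after the data were seen. Sox1 was the lowest of the 3 wherever it had a value.

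**Figure D4:**
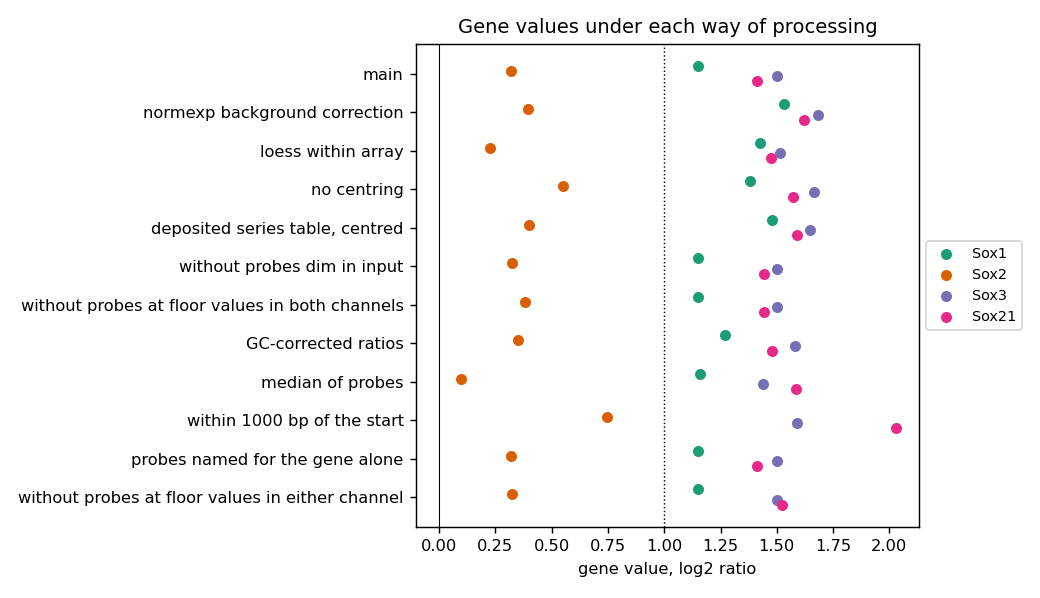
Gene value (x axis, log2 ratio) of Sox1, Sox2, Sox3 and Sox21 under the main processing and each of 11 alternatives (y axis), with points of 1 setting shifted vertically for legibility. Points are single values without replicates and the dotted line marks 1. Sox2 is leftmost in each row, between 0.10 and 0.75, and Sox1 has no value within 1000 bp of the start.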

How the data were processed

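The labels' arrays are 2 slides of a promoter set, with 237054 and 237168 probes used after leaving out control spots and 141 and 17 outliers. Per the file headers, Feature Extraction 9.1.3.1 wrote the scanner files. The deposited processed signals are intensity values after background subtraction and a linear dye factor, and very dim spots hold a floor value, per the file headers. The deposited LogRatio is the log10 of red over green, and the deposited p-value of each spot comes from the software's error model and was not used. The deposited series table holds a log2 ratio of mean signals without centring (medians 0.79 and 0.82; largest difference from the scanner files 5.0e-05). The red channel held immunoprecipitated DNA per the labels.

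The value was the log2 of red over green processed signal minus the array's median probe, which stood at 0.23 and 0.16. The spread over all probes was an SD of 1.33 and 1.44, and input was well above background at 74.1% and 76.3% of probes. The labels do not say whether both slides came from 1 culture, and precision is limited by the number of arrays, without replicates. Array names were matched to present symbols with a RefSeq gene table (12588 by symbol, 3875 by older symbol, 104 by gene ID, 1 by accession, 527 unmatched). The transcription start was given on array 1. On array 2 it was set at the boundary of promoter and inside probes, and on array 1 this boundary and the given start differed by 52 bp (median over 7985 genes). RefSeq promoters were available by symbol for Sox1, Sox2, Sox14, Sox21 and Sox1ot. The labels and headers name no assembly for the array's coordinates, which were not converted.

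Genes needed at least 3 probes and were called high at a mean of 1. Runs were at least 3 probes with a running mean (probes within 500 bp) of at least 1 and gaps under 1000 bp. The genes named were all SoxB genes, every other Sox gene by range with the 2 highest and 2 lowest in full, the nearest gene on each side, and the 3 highest and 3 lowest of the other lists. Of these, 2 genes are not reported here. Sox7, Sox8, Sox9, Sox18, Sox30, Pou5f1, Nes, Pdgfra, Twist1, S100a4 and Col1a2 are named beyond that rule, chosen after their values were seen, and so is Sox1ot's combined tile. Members, lists and this rule were chosen with earlier results of these data known. Alternatives were normexp background correction (offset 50), loess, no centring, the series table, leaving out dim or floor probes, a GC correction in classes of 5%, the median of probes, a window of 1000 bp, probes named for the gene alone, and other thresholds and run settings. Leaving out probes at the floor in either channel, and leaving out Sox1, were added after the data were seen. The scripts were tested on simulated data. R 4.3.3 with limma 3.58.1 and Python 3.11.15 with numpy 2.4.6, pandas 2.3.3 and matplotlib 3.10.9 were used.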

Additional observations from a re-analysis of the deposited data

How the results depend on the processing

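Under the alternatives that gave a value, Sox1, Sox3 and Sox21 stayed at or above 1 and Sox2 stayed below it. The gap between Sox2 and the median of the others ran from -1.34, with the median of probes, to -1.02. At a threshold of 1.5, 1 SoxB gene passed. The share of all genes at or above the threshold was 7.61% at 0.5, 0.653% at 1.5 and 8.08% within 1000 bp of the start, where Sox1 had no value. The count of other Sox genes at or above 1, 0 in the main setting, was 1 with normexp (Sox9), with the median of probes (Sox9), without centring, without probes dim in input, and without probes at the floor in both channels or in either (each Sox17), and with probes named for the gene alone (Sox18). It was 2 with the deposited series table (Sox9 and Sox17) and 5 within 1000 bp of the start. The median of all genes, -0.10, moved by 0.11 with normexp and with the series table, by 0.20 without centring, by -0.18 without probes dim in input, by 0.13 within 1000 bp of the start and by -0.11 without floor values in either channel. Relative to that median, Sox2 lay from 0.10 to 0.71, Sox1 from 1.17 to 1.54, Sox3 from 1.44 to 1.79 and Sox21 from 1.48 to 1.99. Of genes past 1 in size, 75.1% were above with loess, 80.1% without centring, 89.4% with the series table, 62.9% with GC-corrected ratios, 39.4% without probes at the floor in both channels and 32.3% without those at the floor in either. The cause of these changes was not tested. Dim input limits Sox2 most, with 9 of 38 probes not well above background. No paired analysis was possible because the arrays share no probe and fewer than 2 replicate numbers.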
